A study of Mus musculus with 2 samples.

Results

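To follow the secretory side of the mammary epithelium, 10 genes were examined in single cells from mouse mammary transplants. These grafts recombined wild-type luminal cells with basal cells that had kept or lost Fgfr2. They were chosen by name, as 10 of the 27998 genes in the count table: the luminal progenitor genes Kit, Aldh1a3, Plet1 and Cd14, the secretory gene Wfdc18, and the milk protein genes Csn3, Csn2, Csn1s1, Lalba and Wap. All 10 were found in the table, and all 10 had at least 1 unique molecular identifier (UMI, a tag that counts each captured RNA molecule once) in the Ctrl library. Lalba and Wap had 0 UMIs in the Fgfr2 KO library.

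The luminal cells of both groups were Fgfr2+/+. Luminal and basal cells alike carried the R26R reporter mT/mG, which makes a red protein until Cre acts on it and a green one afterwards. The luminal cells were red, and the basal cells of both groups had met an adenovirus with Cre and GFP and were green. In the Ctrl group they were Fgfr2+/+, and in the Fgfr2 KO group they started as Fgfr2 fl/fl and became Fgfr2 null through that Cre. The mixtures were placed in cleared fat pads of female nude mice 3 weeks old, and the grafts were taken 5 days after surgery, dissected under fluorescence and sorted. Nude hosts lack T cells but keep their macrophages. How many grafts or animals entered each library was not given in the sources used here.

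Mammary luminal cells fall into hormone-sensing cells, which carry the estrogen, progesterone and prolactin receptors, and into progenitors of the alveolar cells that make milk. Kit encodes a receptor tyrosine kinase, Aldh1a3 a retinaldehyde dehydrogenase, Plet1 a surface protein of epithelial progenitors and Cd14 a lipopolysaccharide co-receptor, and each is used to mark the progenitors. In pregnancy and lactation prolactin acts through its receptor Prlr, the kinase JAK2 and the factor STAT5, together with the factor ELF5, and the casein and whey protein genes reach very high levels. Csn3, which encodes the kappa-casein that keeps the micelle in solution, and Wfdc18, a small whey-acidic-protein-type secreted protein, are also made in progenitors outside pregnancy, while Csn2, Csn1s1, Lalba and Wap are markers of secretory differentiation.

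In GENCODE M21 (GRCm38) 3 of the caseins lie close together on chromosome 5. Csn1s1, the alpha-casein gene, spans 87666208 to 87682578 on the plus strand. Csn2, the beta-casein gene, spans 87692624 to 87699630 on the minus strand, 10.0 kb away. Csn3 spans 87925579 to 87932665 on the plus strand, 225.9 kb beyond Csn2. Kit is on the same chromosome, from 75574916 to 75656722. Aldh1a3 lies on chromosome 7 (66390890 to 66427517), Plet1 on chromosome 9 (50494525 to 50505482), Wfdc18 on chromosome 11 (83709015 to 83711348), Lalba, which encodes the alpha-lactalbumin that drives lactose synthesis, on chromosome 15 (98480400 to 98482721), and Wap on chromosome 11 (6635482 to 6638637). All are protein-coding genes. Plet1 overlaps an antisense gene, Plet1os, and the counting of strand was not stated, so reads of the pair may not be separate.

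Promoters of Csn2 and Csn1s1 are shown because these neighbours carry the letters of a STAT-type site, and the RNA of Csn2 was found in very few cells. Each runs from 250 bases before to 50 bases after the RefSeq start (GRCm38.p6), is read on the gene's own strand at chr5:87699376-87699675 and chr5:87665958-87666257, and has the motif TTCNNNGAA, which reads the same on both strands, in capitals.
Csn2: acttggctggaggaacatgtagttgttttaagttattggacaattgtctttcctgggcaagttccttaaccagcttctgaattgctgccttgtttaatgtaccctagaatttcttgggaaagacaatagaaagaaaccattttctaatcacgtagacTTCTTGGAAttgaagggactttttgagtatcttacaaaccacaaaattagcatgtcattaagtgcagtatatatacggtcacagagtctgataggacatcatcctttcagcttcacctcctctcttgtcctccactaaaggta
Csn1s1: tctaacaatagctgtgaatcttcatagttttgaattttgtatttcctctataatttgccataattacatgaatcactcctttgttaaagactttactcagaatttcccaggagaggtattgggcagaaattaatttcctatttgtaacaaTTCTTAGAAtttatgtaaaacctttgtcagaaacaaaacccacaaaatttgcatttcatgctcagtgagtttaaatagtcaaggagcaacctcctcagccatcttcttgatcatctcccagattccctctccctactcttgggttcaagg
The motif began at position -93 of Csn2 and at position -100 of Csn1s1, counted from the start. It was held by 2288 of 27025 promoter windows of 300 bases (8.47%). The windows of Kit, Plet1, Wfdc18, Lalba and Wap did not hold these letters. Of the 10 genes 7 matched an entry, all but Csn3, Aldh1a3 and Cd14.

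Ctrl comprised 268 cells (5458515 UMIs) and Fgfr2 KO 86 cells (1253032 UMIs), and no cell barcode occurred in both. Each group had 1 library. No test between groups could therefore be made, and every interval below is a 95% interval of counting error only. Cells with at least 10 UMIs of the 4 keratin genes and no UMI of Ptprc, the gene of CD45, were put in a luminal class when Krt8 and Krt18 outnumbered Krt14 and Krt5, and in a basal class when they were outnumbered. This gave 98 luminal and 63 basal cells in Ctrl, with 1 cell tied, and 20 luminal and 17 basal cells in Fgfr2 KO. Cells with a Ptprc UMI numbered 73 and 23, although the samples are labelled as epithelial cells, and 33 and 26 cells had too few keratin UMIs to be placed. The luminal marker list of 7 genes summed to 8614 counts per 1000000 UMIs (CPM) in luminal and 2113 CPM in basal cells of Ctrl, and to 6622 and 1442 CPM in Fgfr2 KO. CD45-positive cells, which should lack these genes, held 1944 CPM of the same list in Ctrl and 4116 CPM in Fgfr2 KO. Some of these cells had at least 10 keratin UMIs, so these sums were no clean background for the basal values. Krt8, a gene of the list, measured 689 CPM in all CD45-positive cells of Ctrl and 1057 CPM in those of Fgfr2 KO. In the ones with under 10 keratin UMIs it measured 98.2 and 96.0 CPM. Cells of clear and of mixed keratin identity are also given apart below. Fgfr2 itself was measured at 32.9 CPM (23.6 to 44.7, 41 UMIs) in basal cells of Ctrl and at 24.7 CPM (9.94 to 51.0, 7 UMIs) in those of Fgfr2 KO. The intervals overlapped, and tags from one end of the RNA need not report on the deleted exons, so the labelled deletion was not checked by these counts.

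Among the progenitor genes, Plet1 was the most abundant in luminal cells of both libraries, and Kit was scarce. UMIs come from one end of each RNA, so levels of different genes are compared per molecule and not per length. Plet1 measured 272 CPM (253 to 293, 716 UMIs) in luminal and 104 CPM (87.2 to 124) in basal cells of Ctrl. In Fgfr2 KO it measured 349 CPM (301 to 402, 187 UMIs) in luminal and 117 CPM (80.3 to 164) in basal cells. Plet1 was thus the member seen in the largest share of luminal cells, 76 of 98 (77.6%, 68.0 to 85.4%) in Ctrl and 19 of 20 (95%, 75.1 to 99.9%) in Fgfr2 KO.

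Kit had 23 UMIs in 12 of 98 luminal cells of Ctrl (8.75 CPM, 5.55 to 13.1) and 5 UMIs in 3 of 20 luminal cells of Fgfr2 KO (9.32 CPM, 3.03 to 21.8). In the basal class it had 0 UMIs in 63 Ctrl cells, which allows up to 2.41 CPM, and 0 UMIs in 17 Fgfr2 KO cells, which allows up to 10.6 CPM. The limit in Fgfr2 KO lies above the luminal level of that library. Of all 27 Kit UMIs in Ctrl, 85.2% lay in luminal cells, and a single cell held 6 of the 23. Mast cells also make Kit, and all 5 of their markers examined (Cpa3, Mcpt4, Tpsb2, Ms4a2 and Fcer1a) were at 0 in every class.

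Aldh1a3 measured 41.1 CPM (33.7 to 49.6, 108 UMIs) in luminal and 9.63 CPM (4.98 to 16.8, 12 UMIs) in basal cells of Ctrl. In Fgfr2 KO it measured 24.2 CPM (12.9 to 41.5, 13 UMIs) and 7.07 CPM (2 UMIs). It was found in 26 of 98 luminal cells of Ctrl and in 6 of 20 of Fgfr2 KO, so that it was rarer than Plet1 in both libraries.

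Cd14 differed from the other progenitor genes in that most of its RNA lay outside the epithelium. The CD45-positive cells held 59.5% of its UMIs (Ctrl) and 64.7% (Fgfr2 KO), at 516 CPM (477 to 558) and 405 CPM (333 to 489). Luminal cells had 136 CPM (122 to 151, 357 UMIs) in Ctrl and 42.9 CPM (27.2 to 64.4, 23 UMIs) in Fgfr2 KO, and basal cells had 19.3 CPM (12.3 to 28.7) and 28.3 CPM (12.2 to 55.7). Cd14 was also set against 5 macrophage and monocyte markers in the same cells. For every 100 UMIs of those markers there were 45.2 Cd14 UMIs in luminal, 6.37 in basal and 4.23 in CD45-positive cells of Ctrl. In Fgfr2 KO there were 47.9, 36.4 and 5.39, of which the basal value rested on 8 Cd14 and 22 macrophage UMIs. The proportion was thus higher in luminal than in CD45-positive cells of both libraries. In basal cells of Fgfr2 KO 1 cell gave 5 of the 8 Cd14 UMIs, so no order was read there. The macrophage list summed to 301 CPM in luminal and 303 CPM in basal cells of Ctrl and to 89.5 and 77.7 CPM in Fgfr2 KO, so macrophage marker RNA was also lower in the Fgfr2 KO library. Its part in the Cd14 values was not tested.

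**Figure D1:**
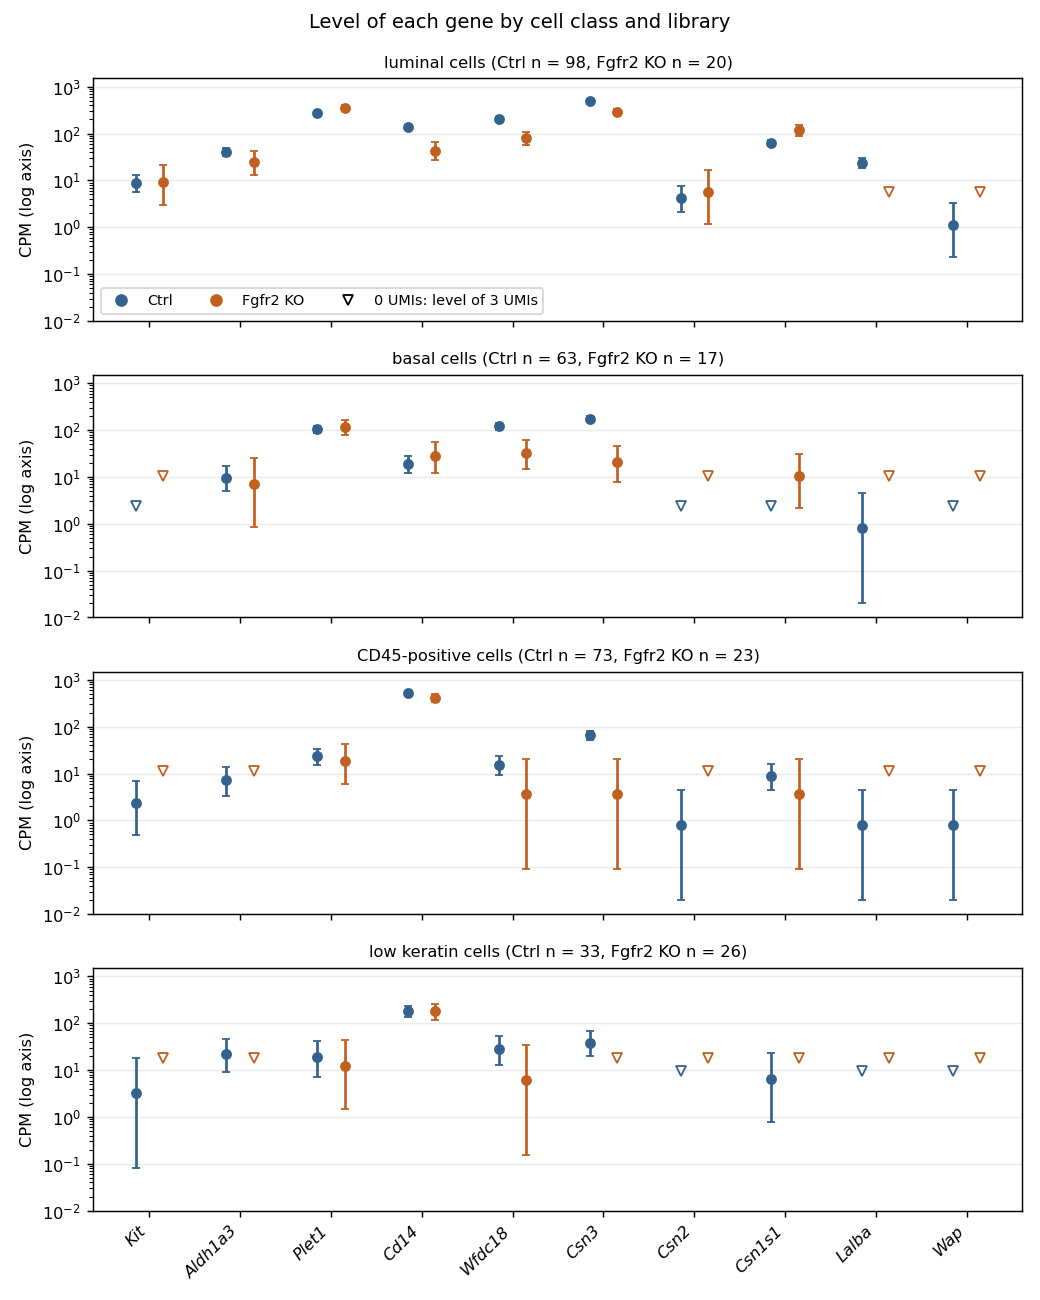
Level of each of the 10 genes in CPM (log axis) in luminal, basal, CD45-positive and low keratin cells, with Ctrl in blue and Fgfr2 KO in orange. Points are levels summed over the cells of a class with 95% Poisson intervals, and open triangles mark genes with 0 UMIs, placed at the level that 3 UMIs would give. Csn3 and Plet1 are highest in the luminal panel, while Cd14 is highest in the CD45-positive panel at 516 and 405 CPM.

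Csn3 was the milk protein gene with by far the most RNA. It measured 489 CPM (462 to 516, 1284 UMIs) in luminal and 171 CPM (149 to 196, 213 UMIs) in basal cells of Ctrl, and 289 CPM (245 to 338, 155 UMIs) and 21.2 CPM (7.78 to 46.1, 6 UMIs) in Fgfr2 KO. It was detected in 58 of 98 luminal cells of Ctrl (59.2%, 48.8 to 69.0%) and in 7 of 20 of Fgfr2 KO (35.0%, 15.4 to 59.2%). The level was far from even, since 1 luminal cell held 28.6% of the Ctrl luminal UMIs and 3 cells together at least 50%. In the basal class of Ctrl 1 cell held 86 of the 213 UMIs (40.4%) and 2 cells together at least 50%.

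Wfdc18 measured 209 CPM (192 to 227, 549 UMIs) in luminal and 120 CPM (102 to 141, 150 UMIs) in basal cells of Ctrl, and 78.3 CPM (56.5 to 106, 42 UMIs) and 31.8 CPM (14.5 to 60.4, 9 UMIs) in Fgfr2 KO. It occurred in 33 of 98 and 16 of 63 cells of the luminal and basal class of Ctrl, and in 5 of 20 and 5 of 17 of Fgfr2 KO. As with Csn3, few cells carried most of it: 4 luminal and 2 basal cells of Ctrl held at least 50% of the UMIs of their class.

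The remaining milk protein genes were low and sporadic. Csn1s1 had 164 UMIs in 18 of 98 luminal cells of Ctrl (62.4 CPM, 53.2 to 72.7) and 63 UMIs in 6 of 20 of Fgfr2 KO (117 CPM, 90.3 to 150). It had 0 UMIs in basal cells of Ctrl and 3 UMIs, in 3 of 17 cells, in those of Fgfr2 KO. A single cell gave 76 of the 164 UMIs in Ctrl (46.3%) and another 48 of the 63 in Fgfr2 KO (76.2%).

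Csn2 had 11 UMIs in 4 luminal cells of Ctrl and 3 UMIs in 1 luminal cell of Fgfr2 KO, with 0 in the basal class of both. Lalba had 62 UMIs in 4 luminal cells of Ctrl, of which 56 (90.3%) were in a single cell. Wap, the major whey protein of mouse milk, had 3 UMIs in luminal cells, all in that same cell, and 1 in a CD45-positive cell. In Fgfr2 KO both were at 0 in 20 luminal cells, which allows up to 5.59 CPM. Cells with any UMI of Csn2, Csn1s1, Lalba or Wap made up 22 of 98 luminal cells in Ctrl (22.4%) and 6 of 20 in Fgfr2 KO (30.0%), and 4 and 1 of these held more than 1 of the 4 RNAs. For comparison, 1 of 63 basal and 6 of 73 CD45-positive cells of Ctrl (8.22%) had such a UMI, and 3 of 17 (17.6%) and 1 of 23 (4.35%) of Fgfr2 KO.

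**Figure D2:**
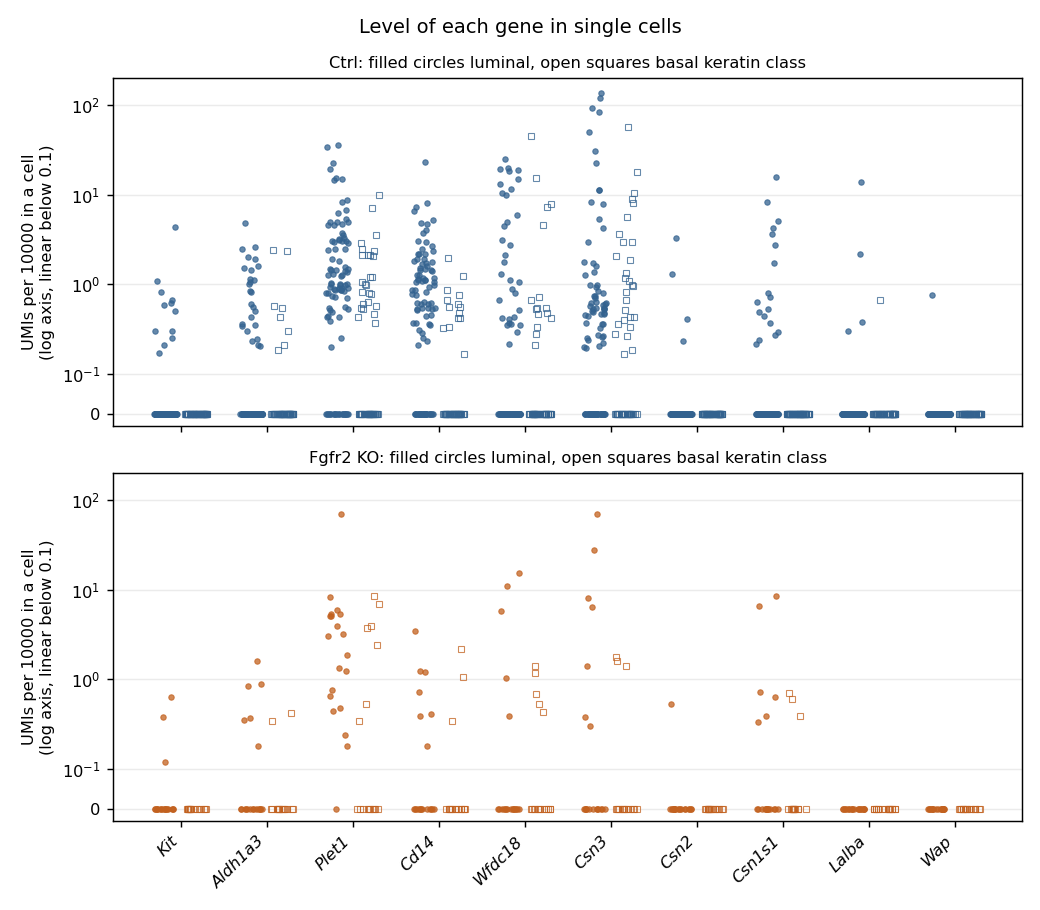
Level of each gene in single cells, in UMIs per 10000 (log axis, linear below 0.1, with 0 at the foot), for Ctrl above and Fgfr2 KO below. Filled circles are luminal and open squares basal cells, 98 and 63 in Ctrl and 20 and 17 in Fgfr2 KO. Plet1 and Cd14 are spread over many luminal cells of Ctrl, whereas Csn2, Lalba and Wap appear in 4 luminal cells or fewer.

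RNA set free by broken cells is captured with every cell, and CD45-positive cells show how much. In Ctrl 15 of these 73 cells, and in Fgfr2 KO 1 of 23, held at least 10 keratin UMIs, so the remaining 58 and 22 cells were the cleaner measure. In the 58 Ctrl cells Csn3 measured 17.8 CPM (9.22 to 31.2), Wfdc18 16.4 CPM (8.17 to 29.3) and Plet1 10.4 CPM (4.19 to 21.4). These were 3.65%, 7.83% and 3.82% of the luminal levels, beside 4.15% for Krt8 and 5.02% for Krt18. Wfdc18 was spread as 11 UMIs over 11 such cells and Csn3 as 12 UMIs over 11.

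Cells with too few keratin UMIs, which carried fibroblast and macrophage markers (14397 and 6083 CPM for Ctrl, 1484 and 5604 CPM for Fgfr2 KO), had 182 and 179 CPM of Cd14 in that order, while Csn3 had 38.3 CPM and 0 UMIs.

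Among the 58 cells Kit had 0 UMIs and Aldh1a3, Csn2 and Lalba 1 UMI each. Over the 22 Fgfr2 KO cells Csn3 and Wfdc18 had 1 UMI each (5.34 CPM). The basal levels of Csn3 and Wfdc18 in Ctrl were above this free RNA level. The share of cells with a UMI said less. Thinned to 8574 UMIs per cell, which left out 6 luminal, 7 basal and 16 CD45-positive cells of Ctrl, Wfdc18 was seen in 23.9% of luminal, 12.5% of basal and 15.8% of CD45-positive cells. In the cleaner CD45-positive cells, of which 42 remained, it was seen in 16.7%. Its basal share was thus no higher than in either set of CD45-positive cells, and its basal CPM rested on few cells. The thinned shares of Csn3 were 37.0%, 30.4% and 19.3%, and those of Plet1 were 55.4%, 30.4% and 10.5%, with 16.7% and 4.76% in the cleaner cells.

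The luminal class was then set against the basal class within each library. A gene was counted as higher or lower when both classes together held at least 20 UMIs and the levels differed by more than 2-fold. In Ctrl 7 of the 8 members with enough UMIs were higher in luminal cells (Kit, Aldh1a3, Plet1, Cd14, Csn3, Csn1s1 and Lalba), against 9.05% of 9535 genes, and 0 were lower, against 5.51%. The median log2 ratio of the 8 was 1.98, beside 0.11 over all genes. Some of these calls depended on the processing: with pure keratin classes the log2 ratio of Aldh1a3 was 0.72 and the bound of Csn1s1 0.49, and thinned to a common depth the bound of Kit was 0.43. In Fgfr2 KO 4 of 5 were higher (Plet1, Wfdc18, Csn3 and Csn1s1), against 13.8% of 4653 genes, and 0 were lower, against 7.33%. There the median was 1.58, beside 0.17.

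Cd14 had a luminal over basal log2 ratio of 2.82 (2.22 to 3.48) in Ctrl and 0.60 (-0.61 to 1.97) in Fgfr2 KO. The ratio of Plet1 was 1.38 (1.11 to 1.67) and 1.58 (1.04 to 2.16), and that of Csn3 1.51 (1.30 to 1.73) and 3.77 (2.61 to 5.24). Wfdc18 stood at 0.79 (0.53 to 1.06) and 1.30 (0.24 to 2.52). Aldh1a3 stood at 2.09 (1.23 to 3.09) and 1.78 (-0.36 to 4.97), the latter on 15 UMIs. For genes at 0 in basal cells only bounds could be had, taking 3 UMIs over the class as the floor. On that floor Kit was 3.63-fold and Csn1s1 25.9-fold higher in luminal cells of Ctrl, with lower counting limits of 2.72-fold and 20.8-fold. Without the cell richest in it, Lalba gave no ratio in Ctrl. The differences in ratio between the libraries were not tested.

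Both classes also held cells of mixed keratins. With a limit of 90% of keratin UMIs of one kind, a cut set with these data known, 53 Ctrl cells were luminal, 13 basal and 96 mixed, and in Fgfr2 KO 17 were luminal, 7 basal and 13 mixed. Mixed cells made up 45.9% of the luminal class in Ctrl and 15.0% in Fgfr2 KO. What gave these cells both kinds of keratin was not tested. Median depth was 21983 UMIs in luminal and 19886 UMIs in mixed cells of Ctrl, and 23147 and 23021 in Fgfr2 KO.

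The members divided by this split in Ctrl. Kit, Plet1 and Cd14 were higher in cells of luminal keratins, at 12.3, 402 and 171 CPM, than in mixed cells, at 2.86, 131 and 65.1 CPM. Their log2 ratios of luminal over mixed were 2.1 (0.74 to 3.62), 1.62 (1.42 to 1.83) and 1.39 (1.09 to 1.69). Aldh1a3 was the reverse, with 10.8 CPM in luminal and 43.0 CPM in mixed cells and a log2 ratio of -2.0 (-2.92 to -1.19). Wfdc18 was likewise lower in luminal (119 CPM) than in mixed cells (222 CPM), at -0.90 (-1.16 to -0.64). Csn3 was near even at 409 and 392 CPM, with a log2 ratio of 0.06 (-0.09 to 0.21). A single cell gave 68.9% of the Csn3 UMIs in the luminal group, while in the mixed group the top cell gave 19.5% and 56 of 96 cells had a UMI. Without the top cell of each group Csn3 was lower in luminal (132 CPM) than in mixed cells (318 CPM), at -1.27 (-1.52 to -1.03).

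In Fgfr2 KO Csn3 and Csn1s1 were instead higher in cells of luminal keratins than in mixed cells. The mixed cells differed in make-up, with 10 of 13 from the basal class in Fgfr2 KO and 50 of 96 in Ctrl. Csn3 measured 389 CPM (330 to 456, 154 UMIs) in luminal and 21.7 CPM (8.72 to 44.7, 7 UMIs) in mixed cells. Its log2 ratio was 4.17 (3.09 to 5.50). It was found in 6 of 17 cells of luminal keratins, and 1 of them gave 59 of the 154 UMIs. Csn1s1 had 62 and 3 UMIs, with 48 of the 62 in 1 cell. Csn2 had 3 and 0 UMIs, and Lalba and Wap had 0 on both sides. Wfdc18 measured 106 and 27.9 CPM, at 1.93 (0.87 to 3.15). Plet1 measured 452 and 99.1 CPM, at 2.19 (1.64 to 2.78), the direction it had in Ctrl. Cd14 measured 35.4 and 52.6 CPM, at -0.57 (-1.70 to 0.53), without the luminal excess seen in Ctrl. Aldh1a3 measured 25.3 and 15.5 CPM, at 0.71 (-0.98 to 2.61), on 15 UMIs. Few UMIs lay in cells of basal keratins, where the most were 6 of Csn3 in 13 Ctrl cells (39.3 CPM) and 9 of Plet1 in 7 Fgfr2 KO cells (89.4 CPM).

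**Figure D3:**
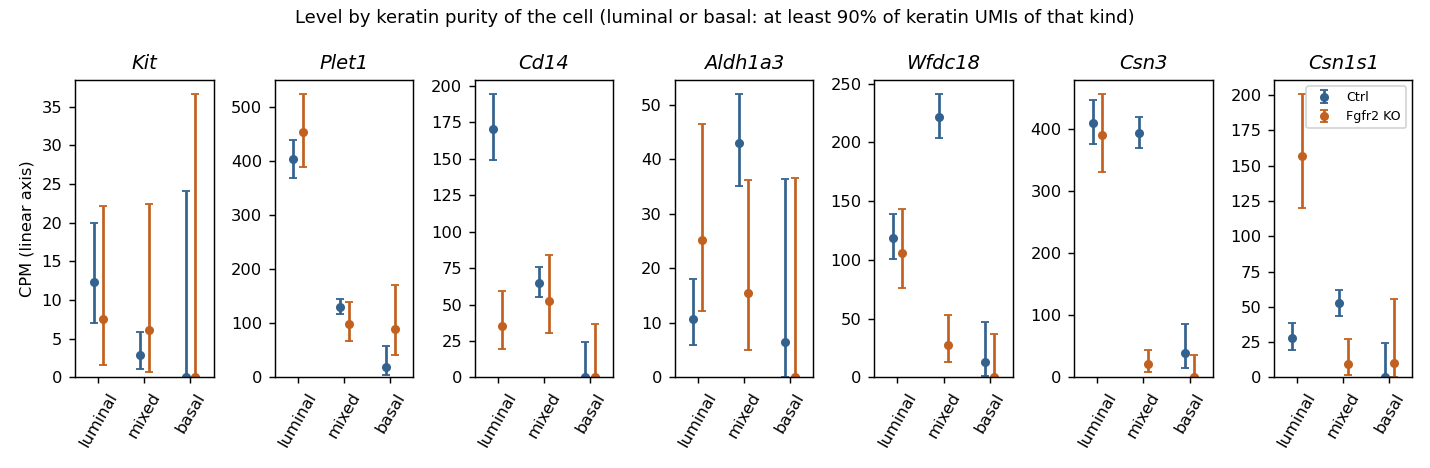
Level in CPM (linear axis from 0, scaled per gene) of 7 of the genes in cells of luminal, mixed and basal keratins, with Ctrl in blue and Fgfr2 KO in orange and 95% Poisson intervals as bars. Csn3 is at 409 and 389 CPM in luminal cells of Ctrl and Fgfr2 KO, where 1 Ctrl cell gave 68.9% of its UMIs, and at 392 and 21.7 CPM in mixed cells, and Cd14 differs in luminal cells (171 and 35.4 CPM).

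Which members differed between Fgfr2 KO and Ctrl was the next question, asked first within the luminal class. There 3 of 8 members were lower past 2-fold (Cd14, Wfdc18 and Lalba), against 8.97% of 9065 genes, and 0 were higher, against 3.94%. The Wfdc18 call was lost with cells weighted equally (-0.27) or thinned to a common depth (-0.84), and the Lalba bound was -0.11 when thinned. The median log2 ratio of the members was -0.76, beside -0.03 over all genes. The progenitor genes summed to 425 CPM in Fgfr2 KO and 458 CPM in Ctrl, a log2 ratio of -0.11 (-0.32 to 0.10). The milk protein genes summed to 412 and 580 CPM, at -0.49 (-0.70 to -0.29). That direction was not stable, with -0.084 when cells were weighted equally, 0.20 with pure keratin classes and 1.55 when those also lost the top cell of each side. In Ctrl 1 cell held 426 of the 1524 UMIs. In the same cells fibroblast markers summed to 147 CPM in Fgfr2 KO and 480 CPM in Ctrl, and hormone-sensing markers to 677 and 501 CPM. At least 10 GFP UMIs, by design a mark of the basal donors, were held by 6 of these cells in Fgfr2 KO and 3 in Ctrl. The part of these differences in the ratios was not tested.

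Cd14 was the progenitor gene that differed most, with a log2 ratio of -1.66 (-2.34 to -1.05). Its ratio was -2.27 (-3.16 to -1.49) in cells of luminal keratins and -0.31 (-1.12 to 0.42) in mixed cells. Plet1 had 0.36 (0.12 to 0.59) in the class, 0.17 (-0.08 to 0.42) in cells of luminal keratins and -0.31 after thinning, so its direction was not fixed. Kit had 0.09 (-1.66 to 1.52), an interval too wide to show a difference of 2-fold either way.

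Aldh1a3 had a log2 ratio of -0.76 (-1.72 to 0.07) in the luminal class but 1.23 (-0.10 to 2.51) in cells of luminal keratins and -1.47 (-3.13 to -0.20) in mixed cells. The interval in cells of luminal keratins spanned 0, on 10 and 14 UMIs, and 1 cell held 50% of the latter, so no direction could be given there.

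Wfdc18 and Csn3 showed the same order across the keratin groups. Their log2 ratios in the luminal class were -1.42 (-1.90 to -0.96) and -0.76 (-1.01 to -0.52). In cells of luminal keratins the ratios were -0.17 (-0.69 to 0.34) and -0.07 (-0.34 to 0.19), and in mixed cells -2.99 (-4.13 to -2.06) and -4.18 (-5.50 to -3.13). The mixed cells differed in make-up, with 45 of 96 from the luminal class in Ctrl but 3 of 13 in Fgfr2 KO. Among mixed cells of the basal class alone (10 in Fgfr2 KO, 50 in Ctrl) the ratios were -1.46 (-2.61 to -0.49) and -2.53 (-3.99 to -1.38), so both genes were lower in Fgfr2 KO there too. Among those of the luminal class, 3 Fgfr2 KO cells held 0 Wfdc18 UMIs and 1 Csn3 UMI, against 297 and 566 CPM in Ctrl. Without the top cell of each side, chosen after seeing the data, the ratios in mixed cells were -3.17 (-4.62 to -2.03) for Wfdc18 and -4.60 (-6.47 to -3.23) for Csn3. In cells of luminal keratins Wfdc18 then had -0.26 (-0.92 to 0.36). Csn3 there had 0.90 (0.52 to 1.27), at 245 CPM in Fgfr2 KO and 132 CPM in Ctrl, so its near equality in all cells of luminal keratins rested on 1 Ctrl cell.

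Csn1s1 pointed the other way in the luminal class, with 0.91 (0.47 to 1.34), but leaving out both top cells gave -0.13. It was higher in Fgfr2 KO among cells of luminal keratins, at 157 against 27.6 CPM with a ratio of 2.50 (1.89 to 3.14), and at 1.70 (0.56 to 2.83) without the top cell of each side, on 14 and 16 UMIs. In mixed cells it had -2.50 (-4.79 to -0.92), on 3 UMIs in Fgfr2 KO. Lalba was 4.22-fold lower in Fgfr2 KO with the side at 0 set to the floor, a log2 bound of -2.08 (counting limit -1.73). That bound rested on the 1 Ctrl cell with 56 UMIs, and without it no ratio could be given. Csn2 had 0.42 (-2.06 to 2.34), on 14 UMIs.

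In the basal class 2 of 4 members were lower in Fgfr2 KO (Wfdc18 and Csn3), against 11.5% of 6637 genes, and 0 were higher, against 4.14%. Their median log2 ratio was -0.88, beside -0.10 over all genes. Csn3 had -3.01 (-4.47 to -1.87) and Wfdc18 -1.92 (-3.08 to -0.96). With pure keratin classes Csn3 gave only a bound of -0.40, from 6 Ctrl UMIs against 0, and Wfdc18 gave no ratio. Plet1 had 0.16 (-0.44 to 0.72) and Cd14 0.55 (-0.81 to 1.76), both with intervals on either side of 0. Neither kept a direction, since Plet1 had 2.19 with pure keratin classes, 0.99 with cells weighted equally and -0.60 thinned to a common depth, and Cd14 had -0.54 without the top cell of each side. The summed milk protein genes, 31.8 CPM in Fgfr2 KO and 172 CPM in Ctrl, had -2.43 (-3.58 to -1.48) and stayed below 0 in all 11 alternatives, from -2.81 to -1.96. Of these, the value with pure keratin classes (-1.98) rested on 1 Fgfr2 KO and 6 Ctrl UMIs. Those without Scrublet doublets and without cells over 25% mitochondrial UMIs left the ratio unchanged. In the basal class of Ctrl 1 cell held 87 of the 214 UMIs (40.7%). Mixed cells made up 79.4% of the basal class in Ctrl and 58.8% in Fgfr2 KO. Basal markers summed to 8844 CPM in the basal class of Fgfr2 KO and 6287 CPM in that of Ctrl. Immune markers summed to 159 and 446 CPM and fibroblast markers to 14.1 and 77.9 CPM. Their part in these ratios was not tested.

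**Figure D4:**
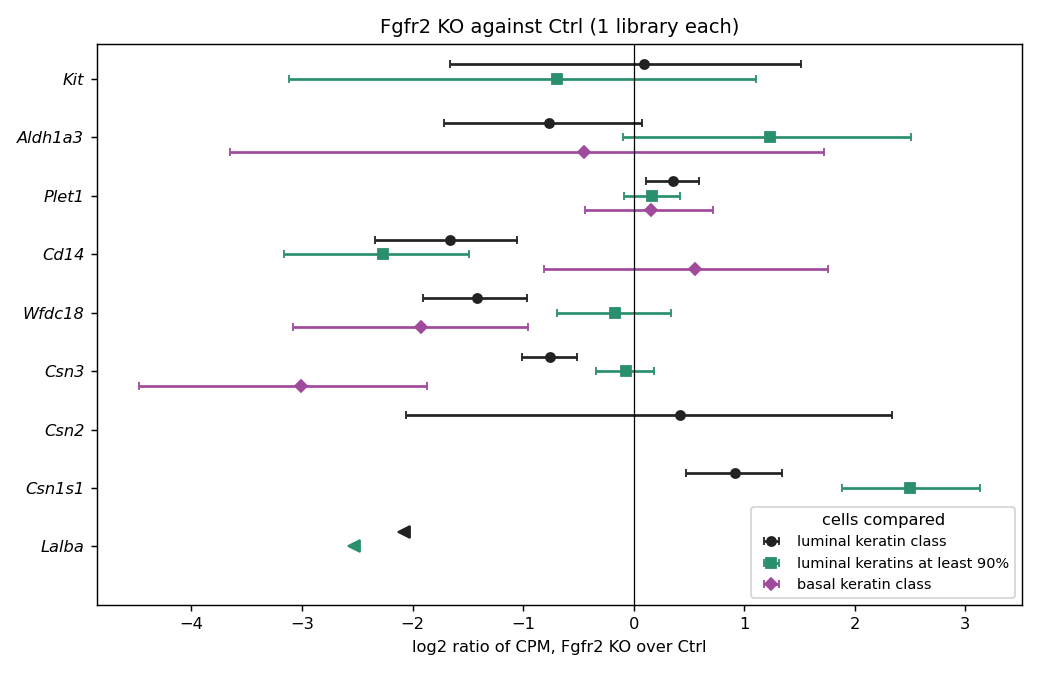
Log2 ratio of CPM in Fgfr2 KO over Ctrl for 9 of the genes, with 95% intervals, in the luminal keratin class (black circles), in cells with at least 90% luminal keratins (green squares) and in the basal keratin class (purple diamonds). Arrowheads mark bounds. For Wfdc18 and Csn3 the green intervals span 0 while the black ones lie below it, and for Cd14 both lie below 0.

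Single cells showed how the milk protein RNAs combined. The Ctrl luminal cell richest in them had 367 Csn3, 56 Lalba and 3 Wap UMIs among 39751, together with 144 Plet1 and 12 Elf5 UMIs and 336 UMIs of luminal against 4 of basal keratins. It had 0 UMIs of Csn2 and Csn1s1. The next 3 Ctrl cells had 187, 170 and 153 Csn3 UMIs at depths of 15429, 12456 and 18330, but only 23, 11 and 31 keratin UMIs, so their place in a keratin class rested on few molecules. The last of these cells held Csn3, Csn2, Csn1s1 and Lalba together, with 10 Elf5 UMIs.

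The 3 Ctrl cells richest in Csn1s1 had little Csn3. The Ctrl cell with 76 Csn1s1 UMIs had 3 of Csn3, 2 of Csn2 and 3 of Kit, with 0 of Elf5 and 7 of Cited1, a gene of hormone-sensing cells. The next 2 had 36 and 20 Csn1s1 UMIs beside 2 and 0 of Csn3 and 0 and 23 of Cited1. The Fgfr2 KO cell with 48 had 8 Csn3, 3 Csn2, 0 Elf5 and 27 Cited1 UMIs, together with 200 UMIs of GFP. The next 2 Fgfr2 KO cells, with 9 and 3 Csn1s1 UMIs, had 38 and 39 of Csn3. The Csn3-rich cells of that library, with 59, 38 and 39 Csn3 UMIs, carried 60, 7 and 26 Plet1 UMIs and 13, 15 and 5 Wfdc18 UMIs.

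**Figure D5:**
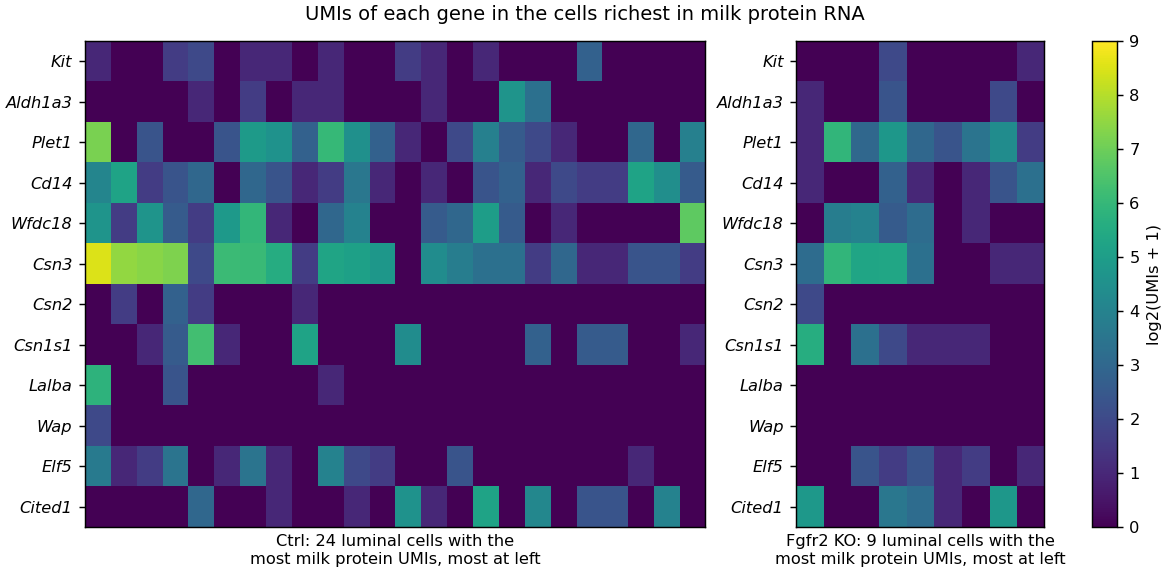
UMIs of each gene, with Elf5 and Cited1 added, as log2(UMIs + 1) in the 24 Ctrl and 9 Fgfr2 KO luminal cells with the most milk protein UMIs, one column per cell with the richest at the left. The Csn3 row is bright at the left in Ctrl, Lalba and Wap are brightest in the first column, and the 3 Ctrl columns brightest for Csn1s1 have at most 3 Csn3 UMIs.

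Pairs of members were compared across the 98 luminal cells of Ctrl, on the log scale of UMIs per 10000. Lalba and Wap had the highest Pearson's r (0.91), which rested on the 1 cell that held both. Wfdc18 and Csn3 came next at 0.54, with 25 cells holding both, and Plet1 and Wfdc18 had 0.45 with 28 and Cd14 and Csn3 0.35 with 47. Csn3 and Csn2, and Kit and Csn1s1, had 0.46, each on 4 shared cells. Kit and Plet1, both progenitor genes, had -0.0022. These are descriptions of cells from 1 library that share its depth and its free RNA.

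Of 7754 other genes, those closest to Csn3 were Aldoc (0.70), Igfbp5 (0.66) and Lcn2 (0.65), with r of 0.79, 0.56 and 0.81 in the 20 luminal cells of Fgfr2 KO. Those closest to Wfdc18 were 3110079O15Rik (0.68), Lcn2 (0.60) and Aldoc (0.56), with 0.87, 0.69 and 0.82. Plet1 was most like Jund (0.51), Pde4b (0.51) and Spp1 (0.48), with 0.72, 0.55 and 0.59. Csn3 and Wfdc18 thus shared 2 of their 3 nearest genes. Aldh1a3 was most like Nt5e (0.50), Vim (0.46) and Tnc (0.44), and Cd14 most like Plcb1 (0.45), Usp8 (0.44) and Bspry (0.44). In Fgfr2 KO these values were -0.00, -0.03 and 0.12 for Aldh1a3 and 0.09, 0.09 and 0.32 for Cd14.

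Hormone-sensing cells were then set apart by 2 or more UMIs of Esr1, Pgr, Prlr or Cited1, a limit chosen after the files were seen. Ctrl had 61 such cells among 98 luminal cells, and Fgfr2 KO had 16 among 20. In Ctrl Csn3 measured 318 CPM in these cells and 787 CPM in the rest, Aldh1a3 26.9 and 66.0 CPM, and Wfdc18 174 and 269 CPM. Csn1s1 did not follow Csn3, with 70.5 and 48.2 CPM, and 76 of the 118 UMIs on the first side and 36 of the 46 on the second lay in 1 cell each. Kit (11.4 and 4.19 CPM), Plet1 (309 and 207 CPM) and Cd14 (151 and 109 CPM) had the opposite order there. The cell with 367 Csn3 UMIs had 3 Prlr UMIs and so lay on the first side. Without the cell richest in milk protein UMIs on each side, Csn3 measured 102 and 601 CPM and Plet1 229 and 211 CPM. The median depth was 23986 and 21224 UMIs. In Fgfr2 KO the rest were only 4 cells, and Csn3 measured 141 and 740 CPM. For Kit, Aldh1a3, Cd14 and Plet1 no order can be read there. Kit rested on 3 and 2 UMIs and Aldh1a3 on 10 and 3, all 9 Cd14 UMIs of the rest lay in 1 cell, and 60 of its 71 Plet1 UMIs (536 CPM, against 287 CPM on the first side) lay in another. Without the cell richest in milk protein UMIs on each side Plet1 measured 331 and 88.7 CPM, the latter on 11 UMIs, and Csn3 141 and 314 CPM, with 3 cells left in the rest. Csn1s1 had 134 and 67.9 CPM in Fgfr2 KO, with 48 of 54 UMIs and 9 of 9 in 1 cell each.

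Cells with at least 10 GFP UMIs, which by design mark exposure to the virus or recombination, numbered 5 in Ctrl and 8 in Fgfr2 KO. Of the 8, 6 were in the luminal class, which had 20 cells, and of the 5 in Ctrl 3 were, among 98. By design the basal donors were the green cells. Whether these luminal-class cells came from basal donors, which in Fgfr2 KO were Fgfr2 null, was not tested. The 8 cells held 18.1% of all UMIs of the Fgfr2 KO library, and 53 of the 67 Csn1s1 UMIs, 57 of the 162 Csn3 UMIs and 3 of the 5 Kit UMIs, these 3 in 1 cell. For Plet1 they held 51 of 227 UMIs (22.5%) and for Cd14 10 of 170 (5.88%). The 5 Ctrl cells held 0.989% of their library's UMIs, and 0 of 177 Csn1s1 and 4 of 1592 Csn3 UMIs. Summed over the milk protein genes this was 113 of 232 UMIs in Fgfr2 KO, 48 of them Csn1s1 UMIs of 1 cell, and 4 of 1849 in Ctrl.

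The prolactin and alveolar pathway was followed through 14 genes. In Ctrl 5 of 14 were higher in luminal cells (Prlr, Stat5a, Elf5, Foxa1 and Notch3) and 1 lower (Sox10), against 9.05% and 5.51% of all genes. In Fgfr2 KO 7 had enough UMIs, of which Prlr, Ehf, Gata3 and Foxa1 were higher and Cebpb and Sox10 lower, against 13.8% and 7.33%. The interval of Ehf spanned 0 there (1.47, -0.097 to 3.47). Between Fgfr2 KO and Ctrl 0 of 14 passed 2-fold in the luminal class in either direction, against 3.94% higher and 8.97% lower. In the basal class 3 of 8 were lower (Jak2, Ehf and Cish), against 11.5%, but Jak2 and Cish had 1 UMI in Fgfr2 KO and the intervals of Jak2 and Ehf spanned 0. Prlr, the prolactin receptor, measured 240 CPM in luminal and 11.2 CPM in basal cells of Ctrl and 218 and 7.07 CPM in Fgfr2 KO. Its Fgfr2 KO over Ctrl log2 ratio in luminal cells was -0.14 (-0.43 to 0.15). Cebpb, a factor of luminal lineage and secretory development, was higher in basal cells, at 535 and 869 CPM in Ctrl and 382 and 1102 CPM in Fgfr2 KO. Gata3 and Foxa1, factors of luminal cells, measured 124 and 92.5 CPM in luminal cells of Ctrl and 144 and 134 CPM in those of Fgfr2 KO.

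Of a further 18 milk and secretory genes, 9 reached 20 UMIs in Ctrl. Of these 9, Muc15, Folr1, Ltf and Spp1 were higher in luminal cells and Xdh lower, against 9.05% and 5.51% of all genes. In Fgfr2 KO 5 could be compared, with Spp1 higher and Lcn2 lower, against 13.8% and 7.33%. Between the libraries 0 of 9 passed 2-fold in the luminal class (3.94% higher and 8.97% lower over all genes), and in the basal class Lcn2 was the 1 of 6 that was higher (4.14%). Spp1, which encodes the secreted glycoprotein osteopontin, measured 569 CPM in luminal and 128 CPM in basal cells of Ctrl and 550 and 205 CPM in Fgfr2 KO. Lcn2, which encodes an iron-scavenging secreted protein, measured 504 CPM in luminal and 805 CPM in basal cells of Ctrl and 535 and 1654 CPM in Fgfr2 KO. It thus did not follow Csn3 between the libraries, although both varied together among luminal cells. Mfge8, a milk fat globule protein, and Plin2, a lipid droplet coat protein, measured 273 and 156 CPM in luminal cells of Ctrl and 218 and 89.5 CPM in those of Fgfr2 KO.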

How the data were processed

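Single-cell RNA of 2 libraries, Ctrl and Fgfr2 KO, was analysed. The deposited table held raw UMI counts, made by the authors with Cell Ranger (2.1.1 per the labels, build mm10) and joined with its aggregation step, and whether reads were thinned in that step was not stated. Columns were assigned to a library by prefix. The 10 genes and all lists were chosen with earlier results of these data known. The named genes were the 10 members, for each further list the 4 genes with the most luminal UMIs, and the 3 genes most like a member with r of at least 0.4.

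UMIs were summed per class and divided by all UMIs of its cells (CPM). Intervals are exact Poisson (levels), Clopper-Pearson (shares) and conditional binomial (ratios), at 95%. A side at 0 gave a bound at 3 counts. Doublets were kept: Scrublet called 1 of 268 Ctrl and 2 of 86 Fgfr2 KO cells. The steps were tested on simulated data. Python 3.11.15, pandas 2.3.3, scipy 1.17.1 and scanpy 1.11.5 were used. Alternatives covered the keratin and Ptprc limits, mitochondrial UMIs, doublets, cell weighting, the top cell, thinning and free RNA. Sequences came from RefSeq (GRCm38.p6).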

Additional observations from a re-analysis of the deposited data

Results flagged for a closer look

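Of the Fgfr2 KO over Ctrl ratios, 2 had opposite signs in the luminal and basal keratin classes. The summed progenitor genes had log2 ratios of -0.11 in luminal and 0.19 in basal cells, both with intervals that span 0. Cd14 had -1.66 in luminal and 0.55 in basal cells, the latter on 32 UMIs. Without the top cell of each class and library the basal ratio of Cd14 was -0.54. The differences between the classes were not tested.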

How the results depend on the processing

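No paired analysis was possible because each group had 1 library. No called ratio changed sign, but some calls were lost, as given above for Aldh1a3, Csn1s1, Kit, Cd14, Wfdc18, Lalba and Csn3. Of 94 alternatives to the 12 summed or median ratios 71 stayed within the counting interval, and of 328 alternatives to the other 69 results 269 did. Between luminal and basal cells of Ctrl the summed progenitor genes had a log2 ratio of 4.51 with pure keratin classes, 1.54 with no Ptprc filter, 2.23 with cells weighted equally and 2.22 thinned to a common depth, and in Fgfr2 KO 2.54 with pure classes. The milk protein genes had 3.62 with pure classes, 1.52 with no Ptprc filter, 2.04 without the top cell of each class and 2.41 with the CD45-positive level subtracted in Ctrl, and in Fgfr2 KO 5.80 with pure classes and 5.26 thinned. For Fgfr2 KO over Ctrl in the luminal class the progenitor genes had 0.48 weighted equally, -0.34 without the top cells, -0.56 thinned and -0.48 in mixed cells, and the milk protein genes 0.20 with pure classes (1.55 without the top cell of each side, of which that of Ctrl held 426 of 629 UMIs), -0.084 weighted equally, -1.11 thinned and -3.87 in mixed cells. In the basal class the progenitor genes had 1.77 with pure classes, 0.79 weighted equally and -0.97 thinned. The median of the members between luminal and basal cells of Fgfr2 KO was 2.53 with a minimum of 50 UMIs. The comparison in mixed cells, whole and by class, the subtraction of CD45-positive cells with under 10 keratin UMIs, and the removal of top cells from the keratin groups and the hormone-sensing split were chosen after seeing the data. For Kit, Aldh1a3, Cd14, Wfdc18, Csn2 and Lalba some alternatives left too few UMIs for a ratio. The 20 luminal and 17 basal cells of Fgfr2 KO limit all comparisons with that library, and 1 library per group leaves the spread between grafts unknown. Except where a value above shows it, the cause was not tested.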
